A study of Homo sapiens with 12 samples.

Results

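Wnt signalling was followed in SKBR3 cells through 58 genes, which were chosen by symbol alone from the 22170 genes of the deposited table. The rule took every WNT ligand, Frizzled (FZD), DKK, SFRP, LGR4 to LGR6, R-spondin (RSPO) and TCF7 family gene in the table, with LEF1, LRP5, LRP6, AXIN1, AXIN2, RNF43, ZNRF3, NKD1, NKD2, WIF1, CTNNB1 and APC. SKBR3 is an established HER2-amplified breast cancer cell line, labelled wild type in all 12 libraries. Messenger RNA was measured in 4 groups of 3 libraries. The combination group received 5 µM GSK126, an inhibitor of the histone methyltransferase EZH2, for 7 days and 100 nM lapatinib, an inhibitor of the EGFR and HER2 kinases, for the last 24 h. The GSK126 group received 5 µM GSK126 for the same 7 days, the lapatinib group received DMSO and then 100 nM lapatinib for 24 h, and the DMSO group received the vehicle throughout. Plates of 6 cm were seeded with 350000 cells each on day -1, after a split on day -3.

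Wnt proteins are secreted lipid-modified ligands that bind Frizzled receptors. With LRP5 or LRP6 as co-receptor, they stop the destruction complex of APC and AXIN1 from degrading beta-catenin (CTNNB1), which then acts with TCF/LEF factors in the nucleus. Other Wnt signals, classically those of WNT5A and WNT11, run without beta-catenin. R-spondins and their LGR receptors keep Frizzleds on the cell surface by restraining the ubiquitin ligases RNF43 and ZNRF3. SFRP, DKK and WIF1 proteins are secreted antagonists, and AXIN2, RNF43, ZNRF3 and NKD1 are feedback inhibitors that beta-catenin can induce. Wnt ligands take part in the branching of the mammary gland.

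Levels are normalized read counts, meaning reads per gene scaled by the authors with DESeq2 size factors. A gene was tested if it reached 10 in at least 3 libraries, and 38 of the 58 genes did. Each change is given as a difference of log2(value + 1) with its SE, and this scale understates the change of genes near 0. The test was limma over all 14179 genes tested, and a change was called at an adjusted p under 0.05. Whether replicates were separate cultures is not in the labels, so p-values cover the spread between these libraries and no more. In such bulk samples, fewer cells of a type and less RNA per cell cannot be told apart.

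The libraries held 17.69 to 30.35 M gene reads, the fewest in combination library 1. Some stood apart before any comparison. Reads fell in 21669 genes and in all 58 Wnt genes in combination library 1, while each of the other 11 had 15059 to 17338 genes and 36 to 44 Wnt genes with reads. By the proportions of the spike-in transcripts among themselves, the libraries were clustered into 3 compositions, a number that was set and not found. One held GSK126 libraries 2 and 3 and combination library 1, one GSK126 library 1 alone and one the other 8. GSK126 library 1 was nearest to DMSO library 1, at a median absolute log2 ratio of spike-in shares of 0.27. The first set was 0.323 from the other libraries at the nearest (GSK126 library 2 to lapatinib library 3). With 2 compositions GSK126 library 1 would thus join the DMSO libraries. Between libraries of a group, the SD of log2 values over genes had a median of 0.203 in the combination group, 0.432 with GSK126, 0.116 with lapatinib and 0.243 with DMSO. The 7 luminal epithelial markers were detected in every group. The summed level of 6 endothelial markers was 783.6 to 1113 in the combination group, 934.3 to 1561 with GSK126, 185.8 to 238 with lapatinib and 206 to 269.7 with DMSO, with TEK and CLDN5 at 0 with GSK126, PECAM1, KDR and CLDN5 at 0 with lapatinib and CLDN5 at 0 with DMSO. CDH5 alone made up most of that sum in cells given GSK126, at 739.2 to 1002 in the combination group and 867.5 to 1529 with GSK126, against 56.41 to 81.28 with lapatinib and 111 to 181.8 with DMSO. VWF, another endothelial marker, ran the other way, at 21.84 to 63.47, 26.52 to 63.53, 124.8 to 156.7 and 83 to 106.6 in the same group order. The sum of 7 immune markers was 656 to 795.3, 325.3 to 477.3, 254.4 to 332 and 199.6 to 228.2 in the same group order, with LYZ at 0 in the lapatinib and DMSO groups and CD3E at 0 in the DMSO group. That of 7 basal markers was 429.5 to 528.2, 490.6 to 702.1, 192.4 to 220.3 and 278.6 to 424.1, and that of 7 fibroblast markers 70.36 to 186.7, 142.4 to 242.2, 202.2 to 244.8 and 250.1 to 393.3, with COL1A2, DCN and LUM at 0 with GSK126. The basal markers did not run alike. KRT17 was at 73.43 to 128.2 in the combination group and 125.5 to 215.7 with DMSO. In these groups ACTA2 was at 189.3 to 245.8 and 53.36 to 94.38, and OXTR at 90.86 to 118.9 and 28.65 to 38. The part of these cell type markers in the results below was not tested.

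Several Wnt genes were higher with GSK126, with or without lapatinib. In GSK126 against DMSO, 12 of the 38 tested Wnt genes rose and 0 fell (31.6%), where 14.6% of all genes tested were called, 10.7% higher and 3.93% lower. Those that rose were the ligands WNT3, WNT3A, WNT4, WNT5A, WNT7B and WNT11, the receptors FZD2, FZD8 and LGR6, the R-spondin RSPO4 and the feedback inhibitors AXIN2 and RNF43. Of these, AXIN2, LGR6 and WNT11 reached 10 only in libraries with GSK126, so they passed the filter only through the groups where they were high. The median log2 change was 0.59 over the Wnt genes and -0.04 over all genes. Without GSK126 library 1, 19 Wnt genes were called, 18 higher and 1 lower, and the calls over all genes went up too, to 3231 (1901 higher and 1330 lower) of 14072, against 2069 of 14179 with all libraries. With the number of spike-in compositions set to 3, no GSK126 library shares that of the DMSO libraries. No comparison within a composition can then be made. With the composition as a term in the fit, WNT11 (4.92, adjusted p = 0.0138) and WNT4 (1.79, adjusted p = 0.0225) passed, and the other 10 ranged from 0.36 to 3.31 with adjusted p from 0.0747 to 0.769. In that fit GSK126 library 1 has a level of its own and adds nothing to the GSK126 estimate. For GSK126 libraries 2 and 3, the composition step rests on combination library 1 against combination libraries 2 and 3. What passed or was lost with the term thus hinges on combination library 1, which stood apart in its genes with reads. A fit of only the 6 GSK126 and DMSO libraries called 7 of the 12, losing FZD2, FZD8, RNF43, RSPO4 and WNT7B.

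In the combination against lapatinib, which shares no library with GSK126 against DMSO, 10 of 38 rose and 0 fell (26.3%), where 17.9% of all genes were called, 11.5% higher and 6.35% lower. They were WNT3A, WNT4, WNT5A, WNT11, FZD5, FZD7, FZD8, LGR6, AXIN2 and TCF7, with a median over the Wnt genes of 0.45, against -0.03 over all genes. Here FZD7, like AXIN2, LGR6 and WNT11, passed the filter only through libraries with GSK126, where it was high. AXIN2, FZD8, LGR6, WNT3A, WNT4, WNT5A and WNT11 were called in both comparisons, which is 58.3% of the 12 genes called with GSK126 alone and 70.0% of the 10 called on top of lapatinib. Of the 38 genes 27 had a positive value in both and 2 a negative value in both. Within 1 spike-in composition, with combination libraries 2 and 3 against the lapatinib libraries, all of the 10 but TCF7 (1.71, adjusted p = 0.0592) passed. That fit also left out GSK126 libraries 2 and 3, which changes the shared estimate of the spread but not these changes. With only combination library 1 left out, FZD5 (1.75, adjusted p = 0.122), FZD7 (2.68, adjusted p = 0.0668) and TCF7 (1.71, adjusted p = 0.0663) did not pass. The rest of the 10 passed in both fits.

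**Figure D1:**
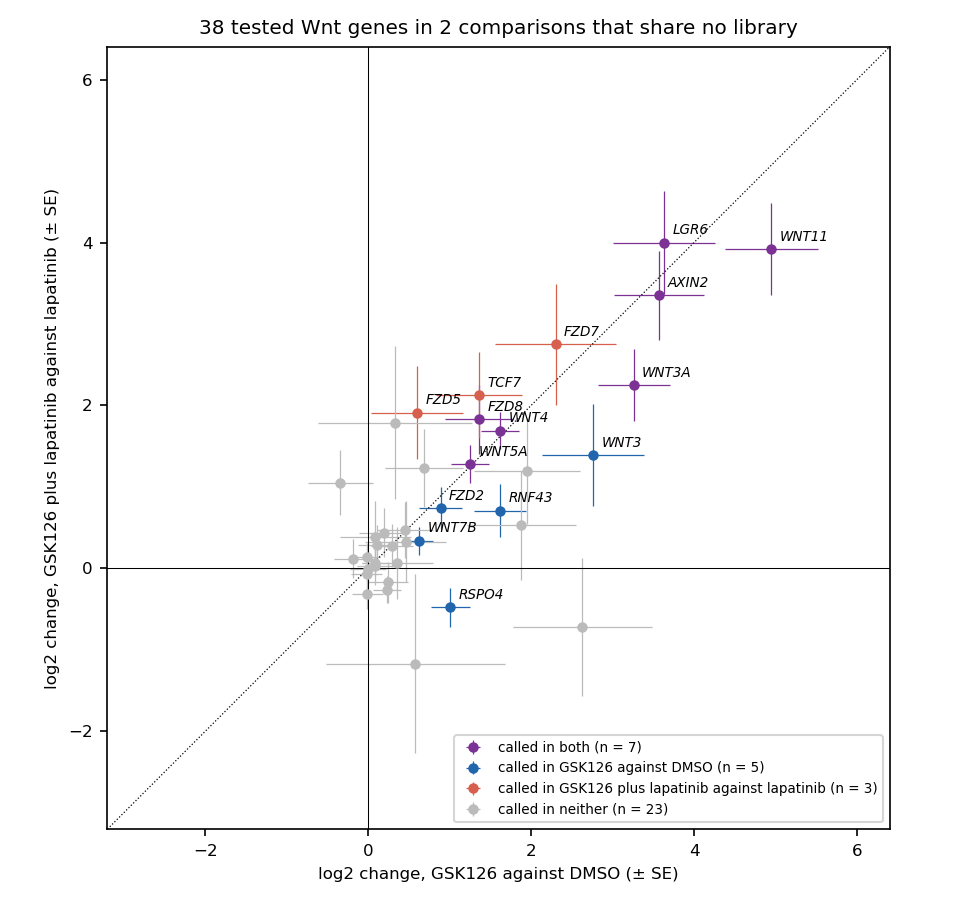
Log2 change ± SE of the 38 tested Wnt genes in GSK126 against DMSO (horizontal axis) and in the combination against lapatinib (vertical axis); the dotted line marks equal changes. The 7 genes called in both comparisons lie in the upper right, from WNT5A (1.25 and 1.28) to WNT11 (4.95 and 3.92), while RSPO4 lies below the horizontal zero line.

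Lapatinib alone moved Wnt genes in both directions. Against DMSO, 9 of 38 were called (23.7%), where 28.0% of all genes were. WNT5A, RNF43 and RSPO4 rose (13.7% of all genes rose), and FZD8, FZD9, TCF7, TCF7L2, WNT5B and WNT6 fell (14.3% of all genes fell). The median was 0.09 over the Wnt genes and 0.04 over all genes. Without lapatinib library 2, 5 Wnt genes were called. The calls over all genes went down too, to 2640 of 14134, against 3973 of 14179 with all libraries. All lapatinib and DMSO libraries share 1 spike-in composition.

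Adding lapatinib to GSK126 changed 4 of 38 Wnt genes (10.5%), where 18.2% of all genes were called, 8.48% higher and 9.71% lower. WNT5A rose, and FZD9, TCF7 and WNT10B fell. Of these, WNT10B had passed the filter only through the GSK126 libraries, where it was high. With the spike-in composition as a term 0 of the 38 passed, and WNT5A was then at 1.03 (adjusted p = 0.0912). That term again rests on combination library 1. The median was -0.06 over the Wnt genes and 0.04 over all genes. The combination against DMSO had 13 of 38 called (34.2%), where 42.1% of all genes were called, 22.0% higher and 20.1% lower. The 12 that rose were WNT2B, WNT3, WNT3A, WNT4, WNT5A, WNT11, FZD6, FZD7, LGR6, RSPO4, AXIN2 and RNF43, and FZD9 fell. The filter was passed by AXIN2, FZD7, LGR6 and WNT11 only through libraries with GSK126. The interaction of the 2 drugs, which asks whether the change with both departs from the sum of the log2 changes with each, was called for 0 of the 38 Wnt genes and for 0.0212% of all genes, 0.0141% higher and 0.00705% lower. At an unadjusted p under 0.05 limma found 3 (WNT6, RSPO4 and SFRP1), edgeR found 4 and DESeq2 found 4. The share of all genes at that threshold was not taken, so no result is drawn from these counts. After adjustment edgeR called 0 of the 38 and 3 of all 14179 genes. DESeq2 called RSPO4 alone of the 38 (adjusted p = 0.00965) and 115 of all genes.

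All these changes are relative to the bulk of genes. Scaling to the spike-ins shifted the median log2 change of all genes by -0.53 in lapatinib against DMSO, 0.04 in GSK126 against DMSO, -0.46 in the combination against lapatinib, -1.03 in the combination against GSK126 and -1.00 in the combination against DMSO. On that scale the median of the Wnt genes was -0.44, 0.65, -0.00, -1.10 and -0.47 in the same order. The calls that passed on the spike-in scale were WNT3, WNT3A, WNT11, LGR6 and AXIN2 in GSK126 against DMSO, and WNT11, LGR6 and AXIN2 both in the combination against lapatinib and, with FZD9, in the combination against DMSO. FZD9, TCF7 and WNT6 passed in lapatinib against DMSO, and FZD9, TCF7 and WNT10B in the combination against GSK126. SFRP1, TCF7L2, WNT3A, WNT5B and WNT7B also passed as lower in the combination against GSK126 on that scale, and LRP6 and TCF7L2 in the combination against DMSO. Over all genes 3057 were called in the first of these (3044 lower) and 4709 in the second (4111 lower). Total-count scaling shifted the same medians by 0.17, 0.11, 0.09, 0.15 and 0.25.

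**Figure D2:**
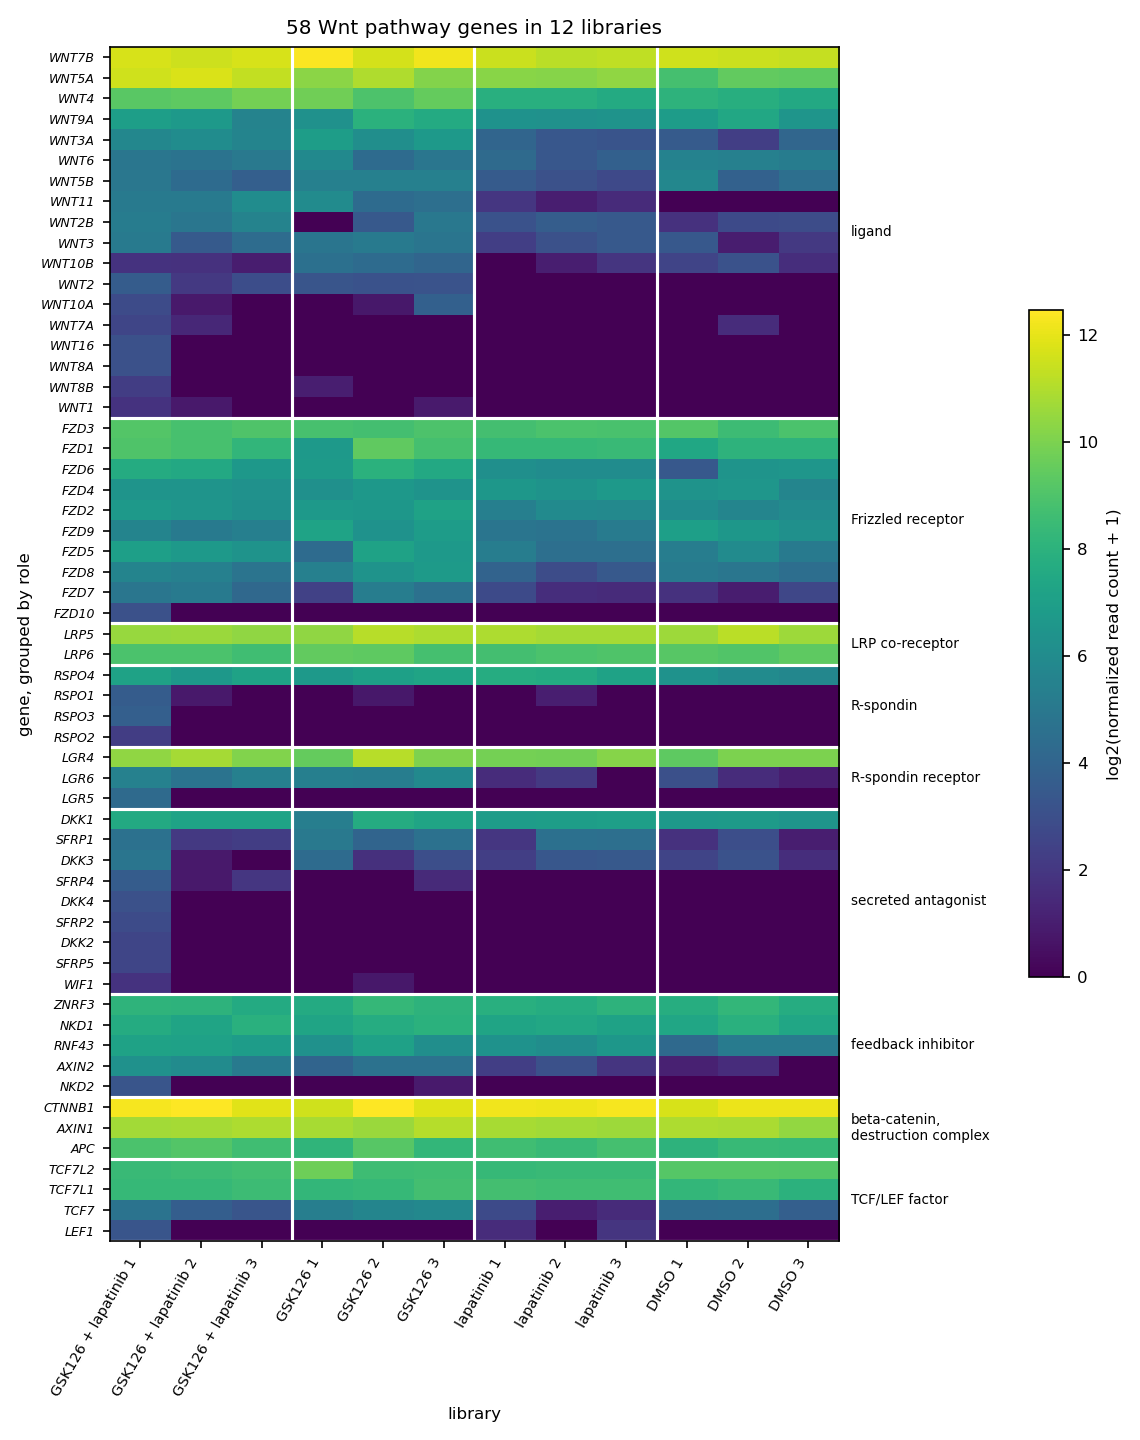
Level of the 58 Wnt genes (rows, grouped by role and sorted by mean) in the 12 libraries (columns), as log2(normalized read count + 1). WNT7B, CTNNB1 and AXIN1 are high in every library, and 10 genes that are at 0 in the other 11 libraries have 3 to 15 reads in combination library 1.

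The 18 ligand genes differed widely in level. Of the 11 tested, 6 rose and 0 fell in GSK126 against DMSO, 4 rose in the combination against lapatinib, and 1 rose and 2 fell in lapatinib against DMSO. Over all genes 10.7% rose and 3.93% fell, 11.5% rose, and 13.7% rose and 14.3% fell. Levels of different genes were compared per kb of exon, from GENCODE 29 exon lengths of another build (GRCh38) than the counts. In DMSO cells WNT7B led with 552.4 ± 37.8 normalized reads per kb (SD, n = 3), followed by WNT5A at 94.3 ± 22.4 and WNT4 at 58.1 ± 10.9. The ranges of WNT5A and WNT4 overlapped, at 68.7 to 111 and 47.5 to 69.2 per kb. WNT9A at 31.8 ± 10.9 and WNT6 at 23.9 ± 2.34 followed, also with overlapping ranges. In combination cells WNT5A averaged 477 per kb, against 94.3 in DMSO cells, next to WNT7B at 628 per kb in combination cells and 552 in DMSO cells.

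**Figure D3:**
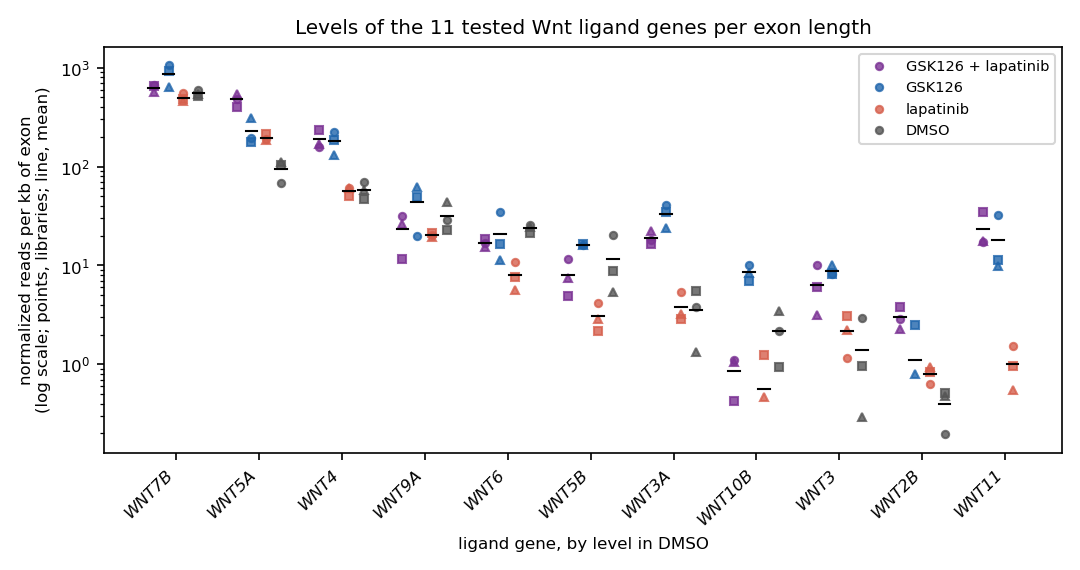
Normalized reads per kb of exon of the 11 tested ligand genes, on a log axis, with 1 point per library and a line at the mean of each group (values of 0 are not drawn). WNT7B is highest in all 4 groups, WNT5A comes next with 477 per kb in combination cells and 94.3 in DMSO cells, and WNT11 has no point in DMSO.

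WNT5A, the prototype of ligands that act without beta-catenin, rose with each drug. It had 3046, 3476 and 2567 normalized counts in combination cells, 1230, 1981 and 1118 with GSK126, 1203, 1166 and 1349 with lapatinib, and 436, 705 and 654 with DMSO. The combination libraries were all above all others and the DMSO libraries below all others, while the GSK126 and lapatinib ranges overlapped. Its log2 change was 1.25 ± 0.23 in GSK126 against DMSO (adjusted p = 0.00238) and 1.28 ± 0.23 in the combination against lapatinib (adjusted p = 0.00154). For lapatinib it was 1.08 ± 0.23 against DMSO (adjusted p = 0.00416) and 1.11 ± 0.23 on top of GSK126 (adjusted p = 0.00544). Against DMSO the combination reached 2.36 ± 0.23 (adjusted p = 5.33e-06), and the interaction was 0.03 ± 0.32. WNT5A kept these calls without any 1 library. On the spike-in scale its 5 changes were 1.29, 0.82, 0.54, 0.06 and 1.35 in the order given here, with adjusted p from 0.0720 to 0.936.

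WNT4, a ligand that acts downstream of progesterone in the mouse mammary gland, rose with GSK126, while no change with lapatinib passed. It had 607, 650.4 and 909.8 in combination cells, 865, 508 and 721 with GSK126, 232, 232 and 195 with lapatinib, and 266, 221 and 183 with DMSO. Every library with GSK126 was above every library without it. The log2 change was 1.62 ± 0.23 in GSK126 against DMSO (adjusted p = 0.000307) and 1.69 ± 0.23 in the combination against lapatinib (adjusted p = 0.000163, and 1.81 with adjusted p = 0.000112 within 1 spike-in composition). Lapatinib against DMSO gave -0.01 ± 0.23 (adjusted p = 0.979). Scaled to the spike-ins, the first 2 values were 1.66 (adjusted p = 0.0661) and 1.23 (adjusted p = 0.264).

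WNT3A, a ligand widely used to activate beta-catenin signalling, followed the same pattern at a lower level. It had 53.5, 65.5 and 48.2 in combination cells, 120.5, 69.8 and 102 with GSK126, 15.7, 9.58 and 8.45 with lapatinib, and 11, 3.95 and 16 with DMSO. The libraries with GSK126 were again all above those without. It rose by 3.26 ± 0.44 in GSK126 against DMSO (adjusted p = 0.000256) and by 2.25 ± 0.44 in the combination against lapatinib (adjusted p = 0.00304). With the spike-in composition as a term the first was 3.15 (adjusted p = 0.0747), and within 1 composition the second was 2.27 (adjusted p = 0.0104).

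The windows upstream of these 3 genes are shown because their ligands were higher in both GSK126 comparisons and had a RefSeq promoter entry. Each holds the 250 bases before a transcription start (GRCh38.p14, RefSeq), written 5′ to 3′ on the gene's strand with each CG dinucleotide in capitals. WNT3A lies at chr1:228006748-228006997 (plus strand), WNT4 at chr1:22143098-22143347 (minus strand) and WNT5A at chr3:55481399-55481648 (minus strand). Only windows that overlap no exon of their gene in GENCODE 29 were printed. Of 4 considered, 1 overlapped an exon, a second window of WNT5A, and was left out.
WNT3A: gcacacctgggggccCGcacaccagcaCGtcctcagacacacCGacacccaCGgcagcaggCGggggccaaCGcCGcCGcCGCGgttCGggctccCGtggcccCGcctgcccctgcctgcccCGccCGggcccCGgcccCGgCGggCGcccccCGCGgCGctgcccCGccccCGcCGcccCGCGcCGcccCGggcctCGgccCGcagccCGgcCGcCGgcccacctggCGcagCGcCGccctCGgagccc
WNT4: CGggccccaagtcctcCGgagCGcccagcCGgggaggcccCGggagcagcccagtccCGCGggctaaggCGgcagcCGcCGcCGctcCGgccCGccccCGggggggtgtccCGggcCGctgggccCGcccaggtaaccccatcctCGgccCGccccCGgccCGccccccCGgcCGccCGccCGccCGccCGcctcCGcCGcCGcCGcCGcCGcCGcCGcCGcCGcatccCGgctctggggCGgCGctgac
WNT5A: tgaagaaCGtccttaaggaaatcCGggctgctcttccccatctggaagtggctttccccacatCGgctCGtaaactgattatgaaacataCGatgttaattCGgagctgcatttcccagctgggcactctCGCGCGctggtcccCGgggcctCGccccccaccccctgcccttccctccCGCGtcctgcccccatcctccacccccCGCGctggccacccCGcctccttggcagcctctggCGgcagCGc
The WNT4 window holds 40 CG dinucleotides and the WNT3A window 38, counts reached by 2.16% and 3.28% of the 35116 RefSeq windows of this length. The WNT5A window shown holds 18, reached by 36.8%, and the one left out holds 14, reached by 44.8%. RefSeq entries matched 40 of the 58 Wnt genes, with a median of 21 CG dinucleotides over 50 windows, against 11 over all windows. The median GC content was 66.6% for the Wnt genes and 58% for all windows. For the genes called in both GSK126 comparisons, 8 windows of 5 genes had a median of 16 CG dinucleotides (2 to 40), and the 3 windows of LGR6 had 2, 4 and 8. The core TCF/LEF motif CTTTGA, or its reverse complement TCAAAG, occurred in 1 of the 50 windows (2%, upstream of DKK1) and in 11.2% of all windows.

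WNT11, a ligand of morphogenetic movements that mostly acts without beta-catenin, had no reads in the DMSO libraries. It had 33.6, 34.0 and 66.5 in combination cells, 62.4, 19.2 and 22.1 with GSK126, and 2.94, 1.06 and 1.88 with lapatinib. In all, the combination group held 138 reads, the GSK126 group 107 and the lapatinib group 6. Against a floor of 3 counts over the DMSO group, its level was at least 41.3-fold higher in combination cells and at least 29.5-fold higher with GSK126. The test gave 4.95 ± 0.57 in GSK126 against DMSO (adjusted p = 6.50e-05), a value set by the pseudocount (2.82 with a pseudocount of 5), and 3.92 ± 0.57 in the combination against lapatinib (adjusted p = 0.000306). WNT11 was the one ligand whose calls passed under every alternative tried. WNT2, which can signal through beta-catenin, had too few reads for the test. It had 9, 4 and 7 reads in the combination libraries and 27 in all with GSK126, and none in any lapatinib or DMSO library, so its level was at least 7.43-fold higher with GSK126 than with DMSO. WNT2 was chosen after its values were seen.

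WNT7B, the ligand with the highest level per kb, had the smallest of the called rises with GSK126. It had 3336, 2866 and 3319 in combination cells, 5318, 3241 and 4629 with GSK126, 2774, 2317 and 2435 with lapatinib, and 2995, 2760 and 2616 with DMSO. It rose by 0.63 ± 0.17 in GSK126 against DMSO (adjusted p = 0.0258), a call lost without GSK126 library 3 (0.58, adjusted p = 0.0673), DMSO library 2 (0.62, adjusted p = 0.0676) or DMSO library 3 (0.58, adjusted p = 0.0954). WNT3, another activator of beta-catenin signalling, averaged 21.5 ± 11.6 in combination cells, 29.5 ± 3.67 with GSK126, 7.23 ± 3.21 with lapatinib and 4.67 ± 4.59 with DMSO (SD, n = 3 each). Its change of 2.76 ± 0.63 in GSK126 against DMSO passed (adjusted p = 0.00975, and 1.66 with adjusted p = 0.688 with the spike-in composition as a term), and 1.39 ± 0.63 in the combination against lapatinib did not (adjusted p = 0.164). Its call in the combination against DMSO (2.18 ± 0.63, adjusted p = 0.0137) was lost without combination library 1 (1.80, adjusted p = 0.0672) or DMSO library 2 (1.60, adjusted p = 0.0555).

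**Figure D4:**
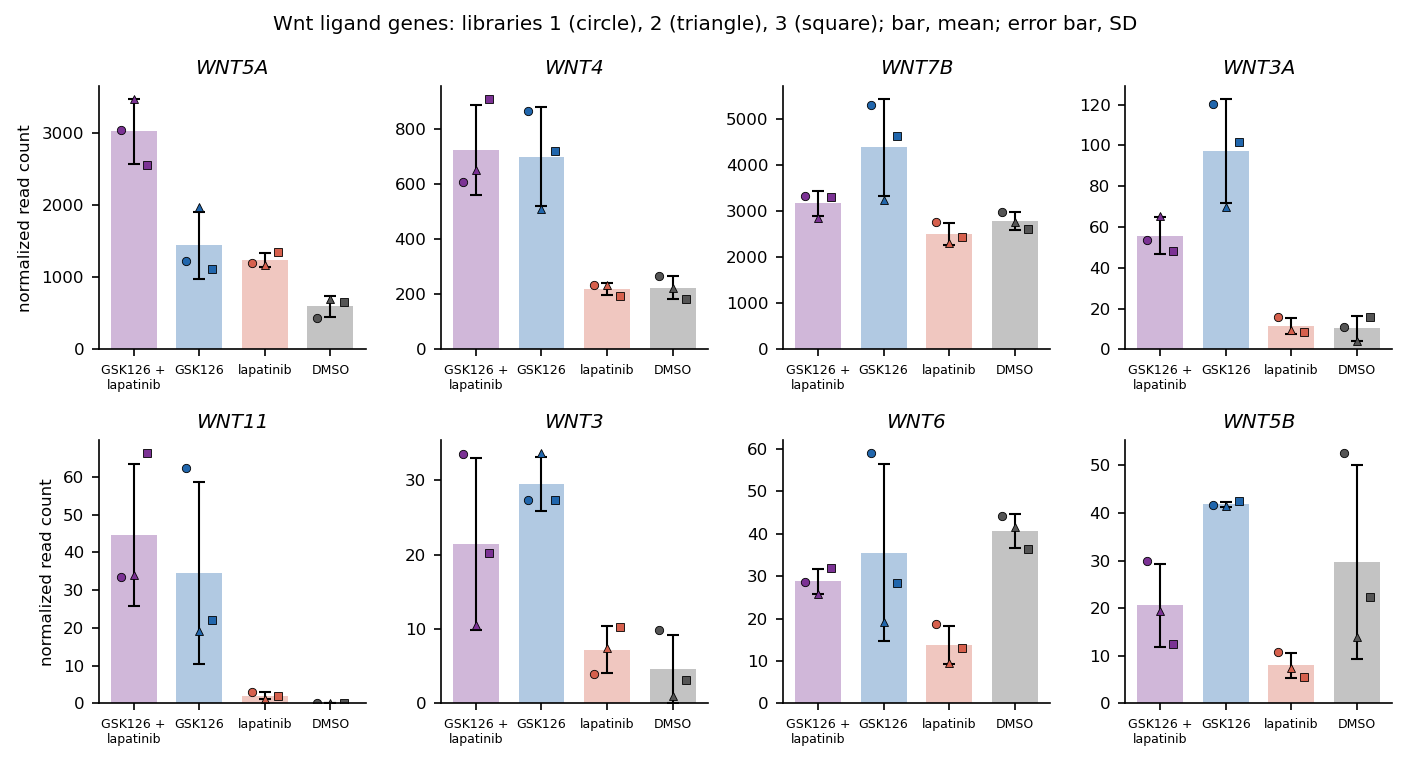
Normalized read count of 8 ligand genes by group, with 1 point per library, the mean as a bar and the SD as error bar (n = 3). WNT4, WNT3A and WNT11 are higher in every library with GSK126 than in any library without it, WNT5A is highest in the combination, and WNT6 is lowest with lapatinib.

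WNT6 and WNT5B were the 2 of 11 tested ligands that fell in lapatinib against DMSO, where 14.3% of all genes fell. WNT6, linked to beta-catenin signalling, had 28.6, 25.9 and 31.8 in combination cells, 59.1, 19.2 and 28.3 with GSK126, 18.6, 9.58 and 13.1 with lapatinib, and 44.1, 41.5 and 36.3 with DMSO. It fell by 1.54 ± 0.40 on the log2 scale in lapatinib against DMSO (adjusted p = 0.0131), a call lost without lapatinib library 2 (-1.32, adjusted p = 0.0601). WNT5B, the close relative of WNT5A, averaged 7.95 ± 2.61 with lapatinib and 29.7 ± 20.4 with DMSO. Its change of -1.61 ± 0.48 (adjusted p = 0.0254) was lost without lapatinib library 2 (-1.59, adjusted p = 0.0693) or 3 (-1.41, adjusted p = 0.0958), or without DMSO library 1 (-1.10, adjusted p = 0.109) or 3 (-1.70, adjusted p = 0.0515). WNT5A and WNT5B thus stood on opposite sides of 0 in this comparison, although the difference between the genes was not tested. WNT10B, which drives mammary growth when expressed as a transgene in mice, averaged 1.96 ± 0.863 in combination cells, 19.4 ± 3.55 with GSK126, 1.29 ± 1.42 with lapatinib and 4.98 ± 2.89 with DMSO. It was lower in the combination than with GSK126 by 2.82 ± 0.67 on the log2 scale (-2.82, adjusted p = 0.0123), or -1.81 with a pseudocount of 5. WNT10B reached 10 only in the 3 GSK126 libraries, so it passed the filter only through the group where it was high. WNT2B averaged 37.2 ± 9.51 in combination cells and 4.93 ± 2.16 with DMSO. Its change of 2.74 ± 0.94 (adjusted p = 0.0325) was lost without any 1 of these 6 libraries (2.39 to 2.94, adjusted p from 0.0543 to 0.106). WNT9A, the remaining tested ligand, had log2 changes from -0.88 to 0.36 and passed in none of the 5 pairwise comparisons.

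Of the 9 tested Frizzled receptors, 2 rose in GSK126 against DMSO, 3 rose in the combination against lapatinib, and 2 fell in lapatinib against DMSO. Over all genes 10.7% rose, 11.5% rose and 14.3% fell in these comparisons. FZD8 had 48.5, 41.3 and 27.0 in combination cells, 41.6, 82.1 and 108 with GSK126, 14.7, 6.39 and 10.3 with lapatinib, and 33.1, 28.7 and 21.3 with DMSO. Every lapatinib library was below all others, and the combination and DMSO ranges overlapped. It rose by 1.83 ± 0.42 in the combination against lapatinib (adjusted p = 0.00783, and 1.65 with adjusted p = 0.0169 within 1 spike-in composition). The rise of 1.36 ± 0.42 in GSK126 against DMSO (adjusted p = 0.0450) was lost without any 1 of the 6 libraries but GSK126 library 1 (1.07 to 1.5, adjusted p from 0.0694 to 0.152). The fall of 1.37 ± 0.42 on the log2 scale in lapatinib against DMSO (adjusted p = 0.0279) was lost without lapatinib library 2 (-1.08, adjusted p = 0.113) or 3 (-1.39, adjusted p = 0.0695), or DMSO library 1 (-1.23, adjusted p = 0.0888) or 2 (-1.33, adjusted p = 0.0654).

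FZD9 was the receptor that fell most clearly with lapatinib. It had 48.5, 32.4 and 40.5 in combination cells, 148, 81.3 and 118 with GSK126, 27.4, 25.5 and 35.7 with lapatinib, and 131, 96.8 and 74.7 with DMSO. Every library with lapatinib was below every library without it. It fell by 1.72 ± 0.30 on the log2 scale in lapatinib against DMSO (adjusted p = 0.00120) and by 1.47 ± 0.30 in the combination against GSK126 (adjusted p = 0.00514, -1.00 with adjusted p = 0.181 with the spike-in composition as a term, and -2.49 on the spike-in scale). GSK126 against DMSO gave 0.19 ± 0.30 (adjusted p = 0.747).

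FZD7, a receptor of beta-catenin signalling in stem cells and breast tumours, averaged 26.6 ± 8.49 in combination cells, 21.9 ± 16.7 with GSK126, 3.29 ± 2.24 with lapatinib and 2.93 ± 2.21 with DMSO. GSK126 library 1, at 4.38, lay within the range of the libraries without GSK126, and GSK126 libraries 2 and 3, at 37.6 and 23.9, lay above it. FZD7 rose by 2.75 ± 0.74 in the combination against lapatinib (adjusted p = 0.0195). That call was lost without combination library 1 (2.68, adjusted p = 0.0668) or 2 (2.56, adjusted p = 0.0851) or lapatinib library 2 (2.59, adjusted p = 0.0735) or 3 (2.52, adjusted p = 0.0748). The comparison of GSK126 with DMSO gave 2.3 ± 0.74 (adjusted p = 0.0551), and 3.14 when GSK126 library 1 was left out, where it passed. FZD5, a receptor of WNT5A and other ligands, had 128, 103 and 83.8 in combination cells, 19.7, 143 and 101 with GSK126, 38.2, 22.4 and 22.5 with lapatinib, and 38, 64.2 and 33.1 with DMSO. It rose by 1.91 ± 0.57 in the combination against lapatinib (adjusted p = 0.0354), a call lost without any 1 of the 6 libraries (1.75 to 2.15, adjusted p from 0.0514 to 0.122). In FZD5 too GSK126 library 1 was low.

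FZD6 had 203, 184 and 98.3 in combination cells, 109.5, 249 and 183 with GSK126, 72.5, 64.9 and 64.8 with lapatinib, and 9.81, 87.0 and 91.8 with DMSO. DMSO library 1 was far below the other DMSO libraries. FZD6 rose by 1.80 ± 0.65 in the combination against DMSO (adjusted p = 0.0416), but by 0.78 without DMSO library 1 (adjusted p = 0.122). The call was also lost without combination library 1 (1.61, adjusted p = 0.129) or 2 (1.68, adjusted p = 0.115). FZD2 had 105, 89.8 and 73.2 in combination cells, 103, 94.3 and 142 with GSK126, 41.1, 61.7 and 56.3 with lapatinib, and 66.2, 50.4 and 63.0 with DMSO. Its libraries with GSK126 all lay above those without. It rose by 0.89 ± 0.26 in GSK126 against DMSO (adjusted p = 0.0333). That call was lost without GSK126 library 3 (0.72, adjusted p = 0.0985) or without DMSO library 1 (0.97, adjusted p = 0.0543), 2 (0.78, adjusted p = 0.109) or 3 (0.94, adjusted p = 0.0698). FZD1, FZD3 and FZD4 passed in none of the pairwise comparisons, with log2 changes from -0.17 to 0.85. FZD1 in GSK126 against DMSO was at 0.46 with all libraries and at 1.24 without GSK126 library 1 (adjusted p = 0.00589). That library had 106 normalized counts of FZD1, and GSK126 libraries 2 and 3 had 674 and 433.

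The co-receptors LRP5 and LRP6 were abundant, and none of their changes passed. LRP5 averaged 1451 ± 94.3 in combination cells, 1818 ± 459 with GSK126, 1802 ± 102 with lapatinib and 1815 ± 387 with DMSO. LRP6 averaged 453 ± 47.7, 597 ± 146, 476 ± 42.9 and 592 ± 58.1 in the same order. Their log2 changes over the 5 pairwise comparisons lay between -0.39 and 0.01.

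Among the R-spondin receptors, LGR6 was nearly silent without GSK126. It had 43.6, 25.9 and 41.4 in combination cells, 40.5, 38.3 and 59.2 with GSK126, 1.96, 3.19 and 0 with lapatinib, and 7.35, 1.98 and 1.07 with DMSO. All libraries with GSK126 lay above all those without, and the combination and GSK126 ranges overlapped. It rose by 3.63 ± 0.63 in GSK126 against DMSO (adjusted p = 0.00168, and 3.31 with adjusted p = 0.237 with the spike-in composition as a term). In the combination against lapatinib it rose by 4.0 ± 0.63 (adjusted p = 0.000620, and 3.87 with adjusted p = 0.00531 within 1 spike-in composition), or 2.64 with a pseudocount of 5. The related LGR4 was high throughout, at 1407 ± 340.0 in combination cells, 1334 ± 791 with GSK126, 1002 ± 156 with lapatinib and 892 ± 207 with DMSO, and passed in no comparison. LGR5, a stem cell marker, had 15 reads in combination library 1 and none in the other 11.

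RSPO4, a secreted partner of the LGR receptors, was the one R-spondin above the filter, and it was higher with either drug. It had 142, 100.3 and 145 in combination cells, 107, 136 and 151 with GSK126, 206, 193 and 143 with lapatinib, and 79.7, 62.2 and 53.4 with DMSO. Every treated library was above every DMSO library, and the 3 treated groups overlapped. It rose by 1.46 ± 0.24 in lapatinib against DMSO (adjusted p = 0.000843) and by 0.98 ± 0.24 in the combination against DMSO (adjusted p = 0.00639, and -0.02 with adjusted p = 0.982 on the spike-in scale). The rise of 1.01 ± 0.24 in GSK126 against DMSO (adjusted p = 0.0141) was lost without DMSO library 3 (0.88, adjusted p = 0.0621). Its interaction was -1.49 ± 0.35, with adjusted p = 0.263 in limma and 0.00965 in DESeq2. RSPO1, RSPO2 and RSPO3 had 1 read at most in any library other than combination library 1.

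**Figure D5:**
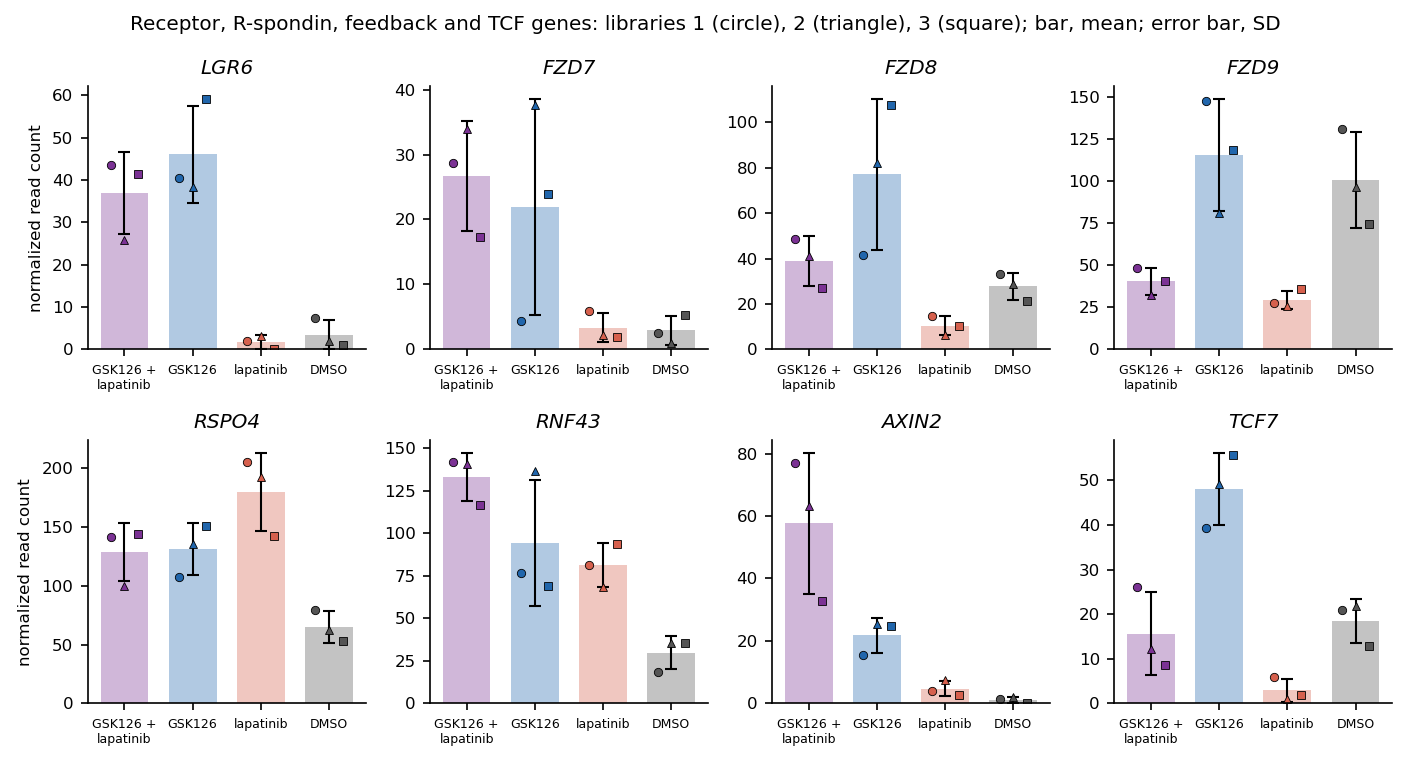
Normalized read count of 8 receptor, R-spondin, feedback and TCF genes by group, with 1 point per library, the mean as a bar and the SD as error bar (n = 3). LGR6 and AXIN2 are near 0 without GSK126, RSPO4 is above every DMSO library in all treated libraries, and FZD9 is lower in every library with lapatinib.

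The secreted antagonists were mostly at or near 0. Of 9 genes, 6 (DKK2, DKK4, SFRP2, SFRP4, SFRP5 and WIF1) were under the filter, and none of the 3 tested passed. DKK1, which blocks LRP6, had 185, 150.5 and 146 in combination cells, 39.4, 199 and 153 with GSK126, 117, 121 and 128 with lapatinib, and 101, 111 and 89.7 with DMSO. GSK126 library 1 was below all others and GSK126 library 2 above all others. Its change of 0.09 ± 0.44 in GSK126 against DMSO (adjusted p = 0.924) was 0.80 without GSK126 library 1 (adjusted p = 0.0147). SFRP1, a decoy for Wnt ligands, averaged 10.2 ± 11.6 in combination cells, 23.7 ± 8.21 with GSK126, 16.3 ± 11.6 with lapatinib and 3.48 ± 3.06 with DMSO. Of its combination reads most came from library 1, at 23.6, against 3.24 and 3.86 in libraries 2 and 3. DKK3 behaved alike, with 27.4 in combination library 1 and 0.809 and 0 in the others.

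Of the 4 tested feedback inhibitors, AXIN2 and RNF43 rose with GSK126, and NKD1 and ZNRF3 passed in no comparison. AXIN2, a scaffold of the destruction complex and a common readout of beta-catenin activity, had 77.2, 63.1 and 32.8 in combination cells, 15.3, 25.3 and 24.7 with GSK126, 3.92, 7.45 and 2.82 with lapatinib, and 1.23, 1.98 and 0 with DMSO. The 4 groups did not overlap at all. The DMSO libraries held 3 reads together, so that the ratio to DMSO was 52.1 in combination cells (95% counting interval 17.5 to 255), 20.6 with GSK126 (6.80 to 102) and 4.26 with lapatinib (1.19 to 23.1). It rose by 3.35 ± 0.55 in the combination against lapatinib (adjusted p = 0.000845, and 3.10 with adjusted p = 0.00701 within 1 spike-in composition). GSK126 against DMSO gave 3.57 ± 0.55 (adjusted p = 0.000695), or 2.13 with a pseudocount of 5, and 3.04 with adjusted p = 0.171 with the spike-in composition as a term. Lapatinib against DMSO gave 1.53 ± 0.55 (adjusted p = 0.0561) and the combination against GSK126 1.31 ± 0.55 (adjusted p = 0.119). These intervals and floors cover counting error only.

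RNF43, a ubiquitin ligase that removes Frizzleds from the surface, rose with each drug against DMSO. It had 142, 141 and 117 in combination cells, 76.7, 137 and 68.9 with GSK126, 81.3, 68.1 and 93.8 with lapatinib, and 18.4, 35.6 and 35.2 with DMSO. Every treated library was above every DMSO library. It rose by 2.18 ± 0.32 in the combination (adjusted p = 0.000156), by 1.62 ± 0.32 with GSK126 (adjusted p = 0.00386) and by 1.46 ± 0.32 with lapatinib (adjusted p = 0.00468), each against DMSO. On the spike-in scale these were 1.19, 1.67 and 0.94, with adjusted p from 0.156 to 0.445. Neither the combination against lapatinib (0.71 ± 0.32, adjusted p = 0.158) nor the combination against GSK126 (0.56 ± 0.32, adjusted p = 0.244) passed. ZNRF3, its relative, averaged 243 ± 44.8 in combination cells, 255 ± 58.1 with GSK126, 236 ± 29.6 with lapatinib and 239 ± 51.4 with DMSO. NKD1, which binds Dishevelled, averaged 196 ± 40.4, 204 ± 47.9, 158 ± 17.1 and 189 ± 45.6 in the same order. The log2 changes of ZNRF3 and NKD1 over the 5 pairwise comparisons lay between -0.24 and 0.29.

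Neither beta-catenin nor the 2 destruction complex genes passed in any comparison. CTNNB1 averaged 4731 ± 843 in combination cells, 4071 ± 1357 with GSK126, 4724 ± 269 with lapatinib and 3957 ± 592 with DMSO. APC averaged 482 ± 80.8, 397 ± 177, 395 ± 45.5 and 307 ± 38.7 in the same order. AXIN1 averaged 1790 ± 99.0, 1844 ± 316, 1704 ± 114 and 1731 ± 305. The largest of their changes was 0.64 ± 0.26 for APC in the combination against DMSO (adjusted p = 0.0606).

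Of the TCF/LEF factors, TCF7 and TCF7L2 fell with lapatinib. TCF7 had 26.1, 12.1 and 8.67 in combination cells, 39.4, 49.1 and 55.7 with GSK126, 5.88, 1.06 and 1.88 with lapatinib, and 20.8, 21.7 and 12.8 with DMSO. The lapatinib libraries were all below, and the GSK126 libraries all above, those of the other groups. It fell by 2.46 ± 0.53 on the log2 scale in lapatinib against DMSO (adjusted p = 0.00429), or -1.59 with a pseudocount of 5, and passed without any 1 library. In the combination against lapatinib it rose by 2.13 ± 0.53 (adjusted p = 0.0124), or 1.34 with a pseudocount of 5. That call was lost without combination library 1 (1.71, adjusted p = 0.0663) or lapatinib library 2 (1.76, adjusted p = 0.0618). In the combination against GSK126 it fell by 1.69 ± 0.53 (adjusted p = 0.0426), which was lost without combination library 2 (-1.58, adjusted p = 0.137) or 3 (-1.36, adjusted p = 0.132), or GSK126 library 2 (-1.66, adjusted p = 0.0596) or 3 (-1.57, adjusted p = 0.107).

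TCF7L2 had 348, 364 and 408 in combination cells, 819, 386 and 401 with GSK126, 328, 348 and 351 with lapatinib, and 575, 565 and 564 with DMSO. GSK126 library 1 was above all DMSO libraries, and GSK126 libraries 2 and 3 below them. Lapatinib against DMSO gave -0.73 ± 0.24 (adjusted p = 0.0362), a call lost without any 1 of the 6 libraries (-0.75 to -0.70, adjusted p from 0.0729 to 0.104). TCF7L1, mainly a repressor, averaged 341 ± 22.0 in combination cells, 354 ± 66.8 with GSK126, 409 ± 15.5 with lapatinib and 301 ± 44.9 with DMSO, and passed in no comparison. LEF1 had 7 reads in combination library 1, 5 reads in lapatinib libraries 1 and 3 together and none elsewhere.

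The 20 Wnt genes under the filter were all at trace level or silent. Of these, 10 (DKK2, DKK4, FZD10, LGR5, RSPO2, RSPO3, SFRP2, SFRP5, WNT8A and WNT16) had no reads in 11 libraries and 3 to 15 reads in combination library 1. The other 10 (LEF1, NKD2, RSPO1, SFRP4, WIF1, WNT1, WNT2, WNT7A, WNT8B and WNT10A) had at most 38 reads in those 11 libraries together. These counts in combination library 1 stand beside its reads in 21669 genes, and no rise in the combination was drawn from them.

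Other genes of the pathway were taken from 5 lists. Of 10 tested genes of Wnt secretion and extracellular inhibition, 4 rose and 1 fell in GSK126 against DMSO, and 4 rose and 2 fell in the combination against lapatinib, with list medians of 1.01 and 0.98 against -0.04 and -0.03 for all genes. Of all genes, 10.7% rose and 3.93% fell in the first comparison, and 11.5% rose and 6.35% fell in the second. WLS, which carries Wnts to the cell surface, had 289, 243 and 248 in combination cells, 199, 211 and 250.2 with GSK126, 52.9, 25.5 and 54.4 with lapatinib, and 24.5, 87.0 and 82.2 with DMSO. Its libraries with GSK126 were all above those without, and it rose by 2.60 ± 0.42 in the combination against lapatinib (adjusted p = 0.000738) and by 1.95 ± 0.42 in GSK126 against DMSO (adjusted p = 0.00720). NOTUM, which inactivates Wnts by removing their lipid, rose by 1.95 ± 0.26 (adjusted p = 0.000156) and 1.56 ± 0.26 (adjusted p = 0.00120) in the same comparisons. APCDD1, a membrane inhibitor with no reads in DMSO, rose by 3.41 ± 0.74 in the combination against lapatinib (adjusted p = 0.00560), or 1.84 with a pseudocount of 5. APCDD1 passed the filter only through libraries with GSK126.

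KREMEN2, which acts with DKK proteins to take LRP6 off the surface, fell in each of the 5 pairwise comparisons. It had 74.7, 96.3 and 126 in combination cells, 1014, 481 and 705 with GSK126, 297, 275 and 243 with lapatinib, and 1720, 1333 and 1238 with DMSO. The 4 groups did not overlap. It fell by 3.86 ± 0.26 on the log2 scale in the combination against DMSO (adjusted p = 2.76e-07), by 2.38 ± 0.26 in lapatinib against DMSO (adjusted p = 3.49e-05) and by 1.01 ± 0.26 in GSK126 against DMSO (adjusted p = 0.020). The last was lost without GSK126 library 2 (-0.74, adjusted p = 0.0568) or DMSO library 1 (-0.87, adjusted p = 0.0891).

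Of 11 tested co-receptor and planar polarity genes, 5 rose and 0 fell in the combination against DMSO (list median 0.56, against 0.06 for all genes, of which 22.0% rose and 20.1% fell). PTK7, a catalytically inactive receptor kinase of planar polarity, had 1342, 1310 and 1201 in combination cells, 590.4, 917 and 828 with GSK126, 91.1, 100.0 and 126 with lapatinib, and 126, 111 and 90.7 with DMSO. Every library with GSK126 was far above every library without it. PTK7 rose by 2.81 ± 0.20 in GSK126 against DMSO (adjusted p = 2.13e-06) and by 3.60 ± 0.20 in the combination against lapatinib (adjusted p = 1.78e-07). The formin DAAM2 rose by 2.89 ± 0.70 in the combination against DMSO (adjusted p = 0.00515), or 1.84 with a pseudocount of 5, and so did the polarity gene PRICKLE2 (1.44 ± 0.34, adjusted p = 0.00445) and the cadherin CELSR2 (0.83 ± 0.17, adjusted p = 0.00178). DAAM2 passed the filter only through libraries with GSK126. On the spike-in scale CELSR2 stood at -0.18 (adjusted p = 0.803) and PRICKLE2 at 0.45 (adjusted p = 0.599).

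Of 15 cytoplasmic transducers, 0 were called in GSK126 against DMSO and 0 in the combination against lapatinib. In the combination against DMSO 3 rose and 2 fell, where 22.0% of all genes rose and 20.1% fell. AMER1, a partner of APC at the membrane, fell by 0.73 ± 0.21 on the log2 scale there (adjusted p = 0.0134). The changes of CSNK1A1 (0.71), TNKS (0.69) and PPP2R1A (-0.42) had adjusted p from 0.0319 to 0.0486 and were each lost without combination library 1, combination library 2, DMSO library 1 or DMSO library 3, with adjusted p from 0.0546 to 0.185, PPP2R1A also without DMSO library 2 (-0.47, adjusted p = 0.0601). Of 15 nuclear cofactors, 4 rose in GSK126 against DMSO and 3 in the combination against lapatinib, where 10.7% and 11.5% of all genes rose. The corepressor TLE4 had 162, 123 and 131 in combination cells, 242, 142 and 104 with GSK126, 15.7, 16.0 and 23.5 with lapatinib, and 20.8, 12.8 and 19.2 with DMSO. It rose by 3.08 ± 0.33 in GSK126 against DMSO (adjusted p = 4.29e-05) and by 2.86 ± 0.33 in the combination against lapatinib (adjusted p = 5.12e-05). TLE2 and TBL1X rose by 1.00 ± 0.21 and 0.94 ± 0.14 in GSK126 against DMSO (adjusted p = 0.00592 and 0.000465). BCL9L, a coactivator of beta-catenin, rose by 0.67 ± 0.20 there (adjusted p = 0.0393), which was lost without GSK126 library 2 or 3 or DMSO library 1 or 3 (0.49 to 0.69, adjusted p from 0.0557 to 0.156).

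Of 14 tested beta-catenin target genes outside the 58, 5 rose and 1 fell in GSK126 against DMSO, 6 rose and 1 fell in the combination against lapatinib, and 1 rose and 2 fell in lapatinib against DMSO. Of all genes, 10.7% rose and 3.93% fell, 11.5% rose and 6.35% fell, and 13.7% rose and 14.3% fell in these comparisons. In the combination against DMSO 6 targets rose and 1 fell, where 22.0% of all genes rose and 20.1% fell. The list medians in the first 3 were 0.55, 1.06 and 0.06, against -0.04, -0.03 and 0.04 for all genes. NOTUM and APCDD1 stand in this list too. ASCL2, a transcription factor of intestinal stem cells, had 208, 198 and 226 in combination cells, 225, 103 and 197 with GSK126, 47.0, 44.7 and 41.3 with lapatinib, and 66.2, 24.7 and 48.0 with DMSO. EPHB2, an ephrin receptor, had 53.5, 42.1 and 58.8, then 83.2, 56.8 and 64.5, then 4.90, 9.58 and 9.38, and 2.45, 11.9 and 2.13 in the same group order. In both genes the libraries with GSK126 lay above all those without. ASCL2 rose by 1.93 ± 0.35 and EPHB2 by 3.72 ± 0.51 in GSK126 against DMSO (adjusted p = 0.00231 and 0.000269). On top of lapatinib they rose by 2.22 ± 0.35 and 2.59 ± 0.51 (adjusted p = 0.000589 and 0.00304). Not all targets rose. CCND1, which encodes cyclin D1, averaged 4642 in combination cells, 7800 with GSK126, 3397 with lapatinib and 9403 with DMSO. It fell by 1.02 ± 0.15 on the log2 scale in the combination against DMSO (adjusted p = 0.000160), by 1.47 ± 0.15 in lapatinib against DMSO (adjusted p = 1.88e-05) and by 0.73 ± 0.15 in the combination against GSK126 (adjusted p = 0.00504). The last of these was lost when those libraries were fitted without the rest (adjusted p = 0.0725). CD44, an adhesion receptor, averaged 1249, 749.9, 123.4 and 57.53 in the same group order and rose by 4.44 ± 0.24 in the combination against DMSO (adjusted p = 4.21e-08). ID2 fell by 0.68 ± 0.17 in GSK126 against DMSO (adjusted p = 0.0190) and also by 0.68 ± 0.17 in the combination against lapatinib (adjusted p = 0.0159). JUN fell by 1.30 ± 0.20 in lapatinib against DMSO (adjusted p = 0.000490) and rose by 1.63 ± 0.20 in the combination against lapatinib (adjusted p = 8.85e-05). PPARD rose by 0.74 ± 0.22 in the combination against DMSO (adjusted p = 0.0158), and MYC was called in none of the 5 pairwise comparisons.

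These pathway genes met the same limits as the Wnt genes. With the spike-in composition as a term, the GSK126 against DMSO calls of WLS (1.78), KREMEN2 (-0.72), TLE2 (0.86), TBL1X (0.71), BCL9L (0.53), ASCL2 (1.73), EPHB2 (3.47), APCDD1 (2.25) and DAAM2 (1.83) were lost, with adjusted p from 0.0957 to 0.716, while those of PTK7, TLE4 and NOTUM passed. On the spike-in scale PTK7, TLE4 and KREMEN2 passed in the combination against lapatinib, where WLS (2.13), NOTUM (1.49), APCDD1 (2.96), ASCL2 (1.76) and EPHB2 (2.12) had adjusted p from 0.0639 to 0.228.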

How the data were processed

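RNA of SKBR3 cells was prepared as 12 mRNA libraries (3 per group) and sequenced as 75 bp single-end reads, per the labels. The deposited values are a signal, read counts that the authors divided by DESeq2 size factors after STAR alignment to hg19, per the submitters' processing notes. The counter, annotation and strand setting are not given in the sources used here, so reads of overlapping or antisense genes cannot be told apart. Whole reads could be recovered for 100% of the values (within 0.01), and every column was assigned to a sample by its name (0 columns unused).

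The tests used R 4.3.3 and limma 3.58.1, on the log2 of the value plus 1, with trended prior variance, 1 mean per group over all 12 libraries, two-sided, and Benjamini-Hochberg adjustment over the 14179 genes that reached 10 in 3 or more libraries; 86 spike-ins were left out. The fit was tested on simulated data drawn with 1 spread setting for all genes and libraries. That test does not cover groups of unequal spread or libraries that stand apart. edgeR 4.0.16 and DESeq2 1.42.0 were run on the recovered reads as alternatives. edgeR called 3877 genes in lapatinib against DMSO, 2000 in GSK126 against DMSO, 2525 in the combination against lapatinib, 2597 in the combination against GSK126 and 5873 in the combination against DMSO, and limma called 3973, 2069, 2537, 2579 and 5970. The other alternatives were pseudocounts of 0.5 and 5, no filter, TMM, total-count and spike-in scaling, a fit of only the groups compared, a replicate block, a term for spike-in composition, leaving out the composition of GSK126 libraries 2 and 3 and combination library 1, and leaving out each library.

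Every Wnt gene called in at least 1 comparison was named, with all library values where its highest group mean reached 50. Core pathway genes were named in any case. From each pathway list, the 4 genes with the smallest adjusted p in the combination against DMSO were named. ID2, JUN, PPARD and MYC, of the beta-catenin target list, were named outside this rule. The members and lists were chosen with earlier results of these data known.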

Additional observations from a re-analysis of the deposited data

How the results depend on the processing

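Of the 48 calls of Wnt genes in the 5 pairwise comparisons, 10 passed under every alternative. These were FZD9 and TCF7 in lapatinib against DMSO, WNT11 in GSK126 against DMSO, AXIN2, LGR6 and WNT11 in the combination against lapatinib, and AXIN2, FZD9, LGR6 and WNT11 in the combination against DMSO. Of these genes, AXIN2, LGR6 and WNT11 passed the filter only through libraries with GSK126, where they were high. Scaled to the spike-ins, the numbers of called Wnt genes were 3 in lapatinib against DMSO (main 9), 5 in GSK126 against DMSO (main 12), 3 in the combination against lapatinib (main 10), 8 in the combination against GSK126 (main 4) and 6 in the combination against DMSO (main 13). Fitted on the compared groups alone, 7 passed in GSK126 against DMSO and 18 in the combination against lapatinib. The spike-in composition term left 2 in GSK126 against DMSO and 0 in the combination against GSK126. Both counts rest on combination library 1 for the composition step. Leaving out GSK126 libraries 2 and 3 and combination library 1 leaves GSK126 library 1 as the only GSK126 library (n = 1), whose spread is assumed to be that of the other groups. Counts and values that involve the GSK126 group then describe that library and are no test of the drug: 14 Wnt genes were called in the combination against GSK126 and 3 in the interaction. DESeq2 on all libraries called 1 in the interaction. Leaving out each library gave 5 to 9, 9 to 19, 7 to 9, 3 to 6, 10 to 12 and 0 to 0 called Wnt genes in the order lapatinib against DMSO, GSK126 against DMSO, the combination against lapatinib, against GSK126 and against DMSO, and the interaction. The cause of these shifts was not tested.

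With GSK126 library 1 alone against DMSO, DKK1 was at -1.32, FZD1 at -1.10, TCF7L2 at 0.53 and WNT2B at -2.49, opposite in sign to the values with all libraries. On the spike-in scale RSPO4 (-0.02), CELSR2 (-0.18), CSNK1A1 (-0.29), TNKS (-0.31) and TBL1X (-0.16) turned in the combination against DMSO, and PTK7 (-0.30) and CD44 (-0.30) in the combination against GSK126.

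Over all genes, spike-in scaling called 785, 578, 408, 3057 and 4709 in lapatinib against DMSO, GSK126 against DMSO and the combination against lapatinib, against GSK126 and against DMSO, and the fit of only the groups compared called 6091, 869, 5094 and 948 in the first 4. The composition term called 446 in GSK126 against DMSO and 1147 in the combination against GSK126. Without GSK126 libraries 2 and 3 and combination library 1 the count was 6229 in lapatinib against DMSO. With GSK126 library 1 alone as the GSK126 group it was 4658 in GSK126 against DMSO, 5897 in the combination against GSK126 and 593 in the interaction, which again describe that library. The interaction was called for 3 genes by limma, 3 by edgeR and 115 by DESeq2 on all libraries. Leaving out 1 library gave 2546 without lapatinib library 1, 3231 without GSK126 library 1 in GSK126 against DMSO, and 1359 without combination library 2 and 4412 without GSK126 library 2 in the combination against GSK126.

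Replicate numbers are shared between groups, but the labels do not pair the libraries. The correlation of deviations of same-numbered libraries had a median of -0.0724 (-0.334 to 0.352), 4 of 18 pairs were above 0.1, and 4 of 12 libraries correlated best with their own number. With the replicate block 9, 10, 10, 4, 13 and 0 Wnt genes were called in the same order of comparisons. Over all genes 3731, 1809, 2295, 2299, 5781 and 1 were called, against 3973, 2069, 2537, 2579, 5970 and 3 in the main fit. FZD2 (adjusted p = 0.0592) and FZD8 (adjusted p = 0.0744) no longer passed in GSK126 against DMSO with the block. Depth limits the genes under the filter: a gene with no reads in a group may have held up to 3 counts.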
